A study of Homo sapiens with 4 samples.

Results

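The p53 target genes described here are 31 genes that the transcription factor p53 is known to switch on, listed by gene symbol. The rule uses no measured value, but the list was drawn up with earlier results of these data known. All 31 were present among the 57820 genes of the count table, and 30 passed the filter on low counts. They were followed in SK-N-SH cells, an established human neuroblastoma cell line, after overexpression of the long noncoding RNA *RP5-998N21.4*. One group of 2 libraries came from cells transduced with a lentivirus in which the EF1a promoter drives the *RP5-998N21.4* cDNA (OE), and the other group of 2 libraries came from cells transduced with the same kind of lentivirus without an insert (vector control). Both groups therefore carried a lentiviral vector. The titles of the control libraries say WT and their genotype is given as wild type, but the label for treatment names the empty vector and was used here. Nothing in the sources used here says whether the libraries of a group came from separate cultures, so p-values measure the spread between these libraries, which may be technical.

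p53 is a stress sensor. In unstressed cells its ubiquitin ligase MDM2 keeps it scarce, and after DNA damage or other stress it accumulates, binds paired copies of a short DNA half-site and raises genes for cell cycle arrest, DNA repair, apoptosis and its own shutdown. Because the activity of the protein is set mostly after translation, the RNA of its target genes is a common readout of the pathway.

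The p53 half-site consensus is 10 bases long and reads the same on both strands. It was searched for in RefSeq promoter windows (GRCh38.p14) of 250 bases before to 50 bases after a gene start. A window was available for 25 members. *TP53INP1*, *TNFRSF10B*, *PHLDA3*, *GADD45A*, *RRM2B* and *TNFRSF10A* had no entry. A pair of half-sites could have up to 2 mismatches over its 20 bases and up to 13 bases between the copies. The core C and G of each copy had to be intact. Such a pair was found for 5 of the 25 members (20%) and for 3.62% of all 27305 genes with a window. A pair that includes a perfect half-site may hold it as 1 of its copies, so the motifs overlap. Single perfect half-sites occurred in 6 of the 37 member windows and in 6.64% of the 34943 windows of all genes. The 5 pairs are shown because they are the paired p53 motifs found in the windows of the genes described below, with both 10-base copies in capitals and flanking or spacer bases in lower case, 5′ to 3′ on the strand of the gene.
FAS: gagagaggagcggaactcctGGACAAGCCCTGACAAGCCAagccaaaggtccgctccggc
AEN: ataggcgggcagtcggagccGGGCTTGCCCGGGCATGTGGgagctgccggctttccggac
MDM2: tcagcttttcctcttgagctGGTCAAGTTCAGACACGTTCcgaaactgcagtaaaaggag
FDXR: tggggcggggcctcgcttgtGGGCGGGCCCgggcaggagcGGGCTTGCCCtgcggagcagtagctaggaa
DDB2: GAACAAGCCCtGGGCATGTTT

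The *FAS* stretch lies at chr10:88991289-88991348 on the plus strand, and its pair begins 122 bases before 1 of the 3 *FAS* starts in the table. The *AEN* stretch lies at chr15:88621286-88621345 on the plus strand, with the pair 34 bases before the start. The *MDM2* stretch lies at chr12:68808903-68808962 on the plus strand, with the pair 94 bases before 1 of the starts. The *FDXR* stretch lies at chr17:74872976-74873045 on the minus strand, with the pair 31 bases before 1 of the 2 starts and 10 bases between its copies. The *DDB2* pair lies at chr11:47214979-47214999 on the plus strand, 6 bases into the transcribed part at 1 of the 2 *DDB2* starts. It had 0 mismatches, against 2 in each of the other pairs. *PLK2* and *SESN1* each had a single half-site and no pair. A match is a description of the letters, and the windows of *CDKN1A*, *BBC3*, *PMAIP1*, *GDF15* and *ZMAT3* held no match at these limits, which says nothing about p53 binding elsewhere.

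Total counts were between 23785164 and 28307591 per library, and values are given as CPM, counts scaled to a fixed library total, after TMM normalization, whose factors were between 0.976 and 1.02. *RP5-998N21.4* itself was at 1.37 and 1.40 CPM in the vector control and at 95.8 and 96.9 CPM in OE. Of the adrenergic neuroblastoma markers, all 9 tested genes were higher in both OE libraries than in both controls (against 27.8% of all genes), *CHGA* with adjusted p = 0.0449 by edgeR's quasi-likelihood test, and *TH* was at 0 counts in every library. Their summed level was 562 to 626 CPM in the vector control and 1005 to 1040 CPM in OE. Of the 9 mesenchymal markers, 6 were lower in both OE libraries than in both controls (66.7%, against 27.6% of all genes), and *VIM* was above both controls, at 348 and 349 CPM against 1252 and 375 CPM. The sums were 4395 to 4449 CPM in the vector control and 3073 to 4511 CPM in OE. Of 8 markers of other tissues, *ALB*, *CDH1*, *HBB* and *INS* were at 0 in all 4 libraries, and *EPCAM* (8 to 30 counts), *GFAP* (6 to 18), *MBP* (3 to 17) and *PTPRC* (0 to 4) had few. In bulk RNA, fewer cells of a type and less RNA per cell cannot be told apart, and the part of these markers in the values of the p53 target genes was not tested.

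With the study's cutoffs (adjusted p under 0.01, log2 fold change beyond 0.5), 0 of the 30 tested p53 target genes were called by edgeR's quasi-likelihood test, and the share over all 20528 genes was also 0%. At an adjusted p under 0.05 with the same fold, edgeR called 0 members, against 0.594% of all genes, and limma-voom called 2, *FAS* and *GDF15* (adjusted p = 0.0409 and 0.0493), against 1.38% of all genes. At an unadjusted p under 0.05, 6 members were higher in OE (20%, against 10.1% of all genes) and 1 was lower (3.33%, against 10.7%). *FAS*, *GDF15*, *BBC3*, *AEN*, *EDA2R* and *SESN1* were the members higher at that level, and *ZMAT3* the member lower. The count of 6 was 3 without vector control replicate 1 and 2 without OE replicate 1. DESeq2, the tool the study names, called 2 members higher at the study's thresholds, *FAS* and *GDF15*, against 4.35% of all genes. With 2 libraries per group, an exact permutation test cannot go below p = 0.333. The p-values come from edgeR, which weighs each gene's own spread (2 residual degrees of freedom) with one shared across genes (1.75 prior degrees of freedom).

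The median log2 fold change of the 30 members was 0.13, against 0.01 for all genes tested. It was 0.02 without vector control replicate 1. Both OE libraries lay above both controls for 11 members (36.7%, against 27.8% of all genes) and below them for 5 (16.7%, against 27.6%), and the groups overlapped for the other 14. *PERP*, a desmosome-associated apoptosis gene, was the member left out by the filter, with 0 counts in both controls and with 3 and 4 counts after overexpression. A library at 0 allows up to 3 counts, or 0.129 and 0.128 CPM in the controls, for counting error only. Exons of 14 members overlap those of another annotated gene, 2 of them on the same strand, and *CCNG1*, *MDM4*, *PERP*, *POLH* and *TRIAP1* have named pseudogenes, so reads of these genes may be shared.

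**Figure D1:**
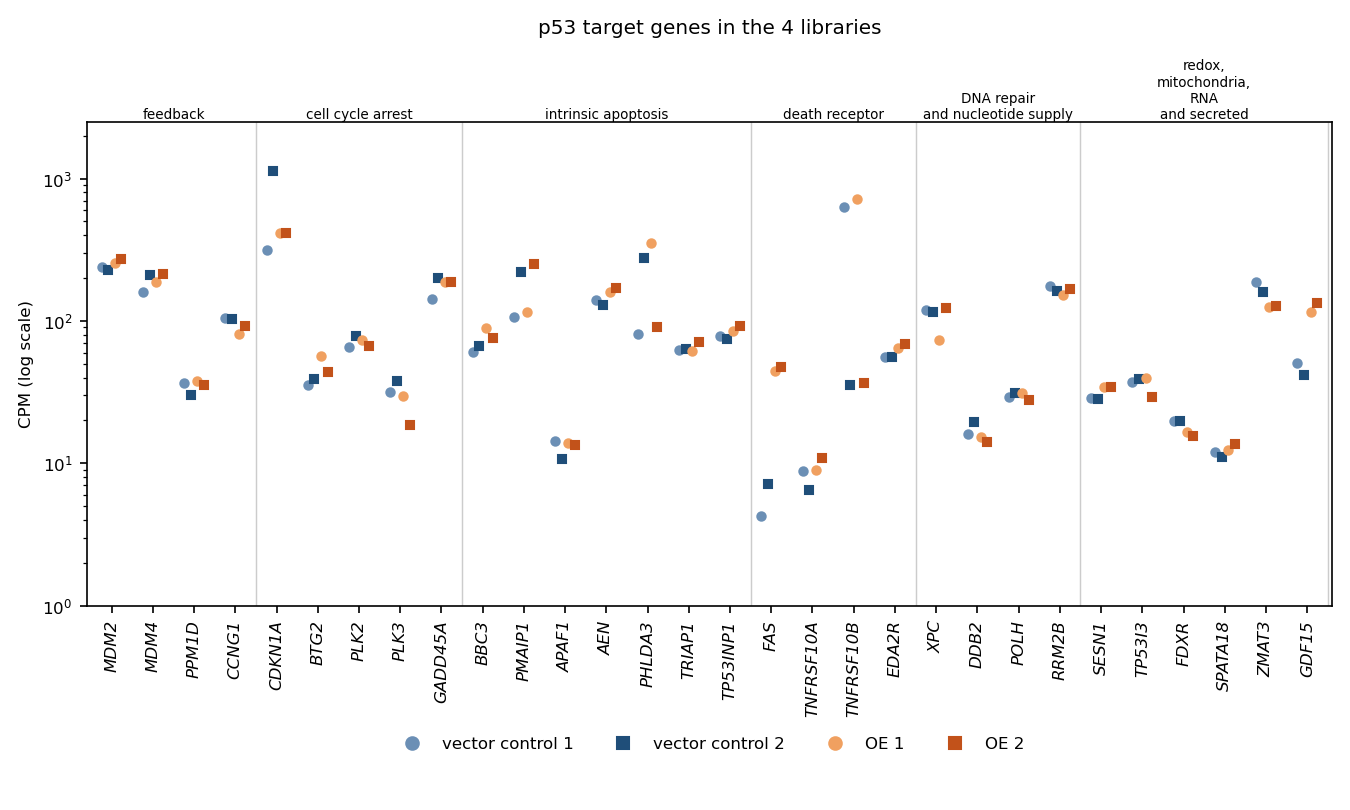
CPM of the 30 tested p53 target genes in each library on a log axis, grouped by role, with circles for replicate 1 and squares for replicate 2. FAS and GDF15 stand apart by group, while CDKN1A, PMAIP1, PHLDA3 and TNFRSF10B are spread more than 2-fold within a group.

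The death receptor genes encode surface proteins that start apoptosis from outside the cell. *FAS* (chr10:90750414-90775542, plus strand, GRCh37), the receptor for the FAS ligand, was at 4.29 and 7.14 CPM in the vector control and at 44.3 and 47.3 CPM in OE. Both OE libraries were far above both controls, and the means were 5.72 ± 2.02 and 45.8 ± 2.1 CPM (SD, n = 2 libraries each). Its log2 fold change was 3.0 (SE 0.302), the largest of the members, with adjusted p = 0.0637 by edgeR's quasi-likelihood test. Leaving out any 1 library gave values from 2.67 to 3.41. The adjusted p ran from 7.4e-23 in DESeq2 to 0.400 across the 12 alternatives.

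The *FAS* counts were not spread evenly over its transcripts. ENST00000355740.2 took 0 and 47 counts in the 2 controls against 1026 and 1271 in the 2 OE libraries. All other *FAS* transcripts together took 100 and 121 counts in the 2 controls against 87 and 98 in the 2 OE libraries. The difference between the groups thus lay on 1 annotated transcript. When each transcript's counts were divided by its length before summing, an alternative chosen after seeing the data, *FAS* was 11.1 and 14.9 CPM in the vector control and 44.2 and 47.8 CPM in OE, and its log2 fold change was 1.82 (SE 0.194, adjusted p = 0.0708 by edgeR's quasi-likelihood test). Exons of *FAS* overlap those of *ACTA2* on the other strand, and the use of strand in counting is not given in the sources used here. *ACTA2* had 816 and 1020 counts in the 2 controls against 527 and 787 in the 2 OE libraries.

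*EDA2R*, the receptor for ectodysplasin A2, was at 55.7 and 55.4 CPM in the vector control and at 64.6 and 68.8 CPM in OE. The groups did not overlap, and the log2 fold change was 0.26 (SE 0.0885, adjusted p = 0.229 by edgeR's quasi-likelihood test). *TNFRSF10A*, TRAIL receptor 1, was low, from 6.55 to 11 CPM over the 4 libraries. *TNFRSF10B*, TRAIL receptor 2, was at 630.9 and 35.4 CPM in the vector control and at 723.9 and 36.9 CPM in OE. Replicate 1 of each group was high and replicate 2 low, by 17.8-fold in the vector control and 19.6-fold in OE. Almost all of its counts were on the same transcript in every library, 14708, 833, 18061 and 1070 on ENST00000276431.4. Its log2 fold change was 0.19 (SE 1.91), and it turned to -0.73 without vector control replicate 2 and to -3.17 without OE replicate 1, so the difference between the groups was far smaller than that between replicates. Its exons overlap those of *RHOBTB2* on the other strand, which was between 62.6 and 70.5 CPM in all 4 libraries.

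The genes grouped under the intrinsic route to apoptosis act at different steps of it or on its regulation. *BBC3* (chr19:47724079-47736023, minus strand, GRCh37), which encodes the BCL2-binding protein PUMA, was at 61.0 and 66.6 CPM in the vector control and at 89.95 and 76.4 CPM in OE. Both OE libraries were above both controls, with means of 63.8 ± 3.99 and 83.2 ± 9.58 CPM (SD, n = 2 libraries each). The log2 fold change was 0.38 (SE 0.126, adjusted p = 0.223 by edgeR's quasi-likelihood test), and 0.37 with length-scaled counts. Between 70.6% and 76.3% of its counts in a library were on ENST00000601438.1. The annotation used for transcript lengths types that transcript as a retained intron, not as protein-coding. *AEN*, an exonuclease that takes part in DNA fragmentation, was at 141 and 130 CPM in the vector control and at 159.5 and 169.2 CPM in OE. Its log2 fold change was 0.28 (SE 0.0837, adjusted p = 0.202 by edgeR's quasi-likelihood test). It was 0.60 with length-scaled counts (adjusted p = 0.123) and -0.51 when a single transcript, that of highest mean, stood for the gene. *AEN* counts moved between transcripts within a group: ENST00000332810.3 took 0 and 1017 counts in the 2 controls against 3897 and 0 in the 2 OE libraries. ENST00000557927.1, typed as a retained intron, took 2893 and 2005 counts in the 2 controls against 0 and 4269 in the 2 OE libraries.

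*PMAIP1*, which encodes the BCL2-family inhibitor NOXA, was at 108 and 220 CPM in the vector control and at 116 and 252 CPM in OE. The replicates of each group were more than 2-fold apart and the groups overlapped, with a log2 fold change of 0.16 (SE 0.555, adjusted p = 0.898 by edgeR's quasi-likelihood test). It turned to -0.27 without vector control replicate 1 and to -0.51 without OE replicate 2. In replicate 1 of both groups, ENST00000269518.9 took 2017 and 2278 counts and ENST00000316660.6 took 0, and in replicate 2 of both groups ENST00000316660.6 took 5098 and 7149 counts and ENST00000269518.9 took 0. *PHLDA3*, an inhibitor of the kinase AKT, was at 80.7 and 277.5 CPM in the vector control and at 355 and 90.5 CPM in OE. It was high in 1 library of each group, and its log2 fold change of 0.32 (SE 0.942, adjusted p = 0.884) turned to -0.32 without vector control replicate 1 and to -0.98 without OE replicate 1. *APAF1*, which forms the apoptosome, *TRIAP1* and *TP53INP1* had log2 fold changes of 0.12, 0.08 and 0.20 with adjusted p of 0.767, 0.754 and 0.318 by edgeR's quasi-likelihood test.

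**Figure D2:**
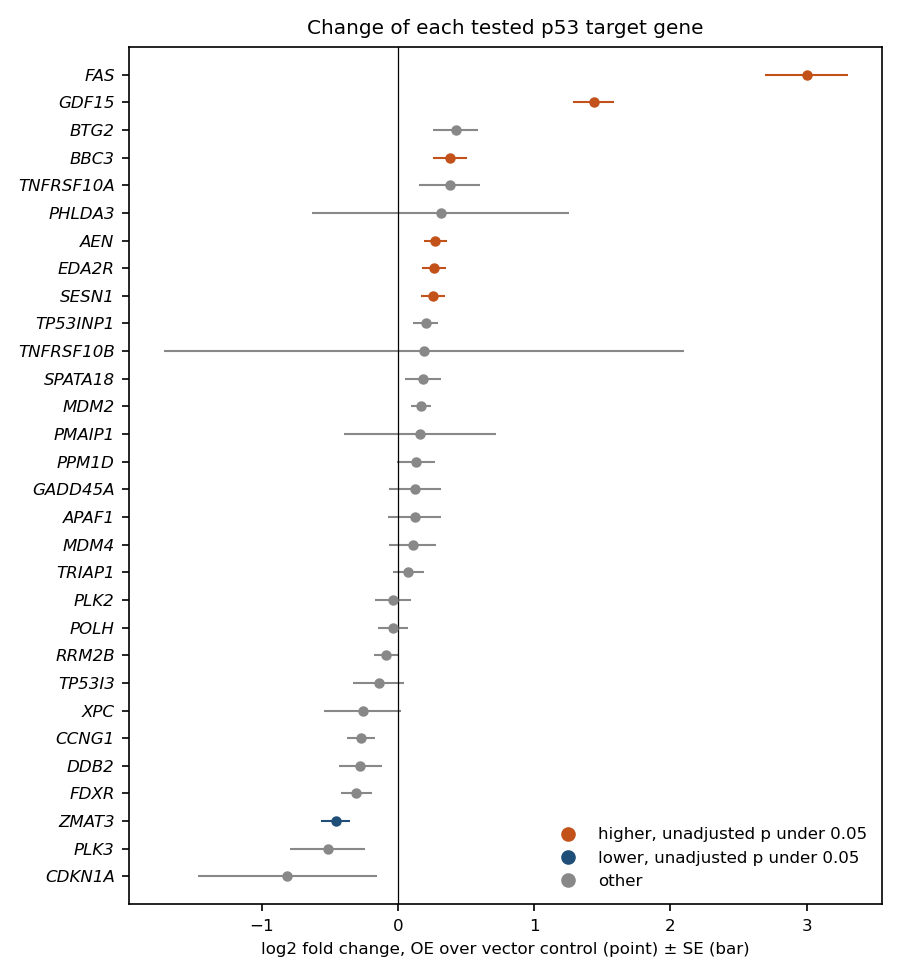
Log2 fold change (OE over vector control, points) with its SE (bars) for the 30 tested p53 target genes, ordered by size, with colour for an unadjusted p under 0.05. FAS and GDF15 lie at 3.0 and 1.44, all other members lie between -0.81 and 0.42, and the bar of TNFRSF10B, with an SE of 1.91, is the longest.

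The arrest genes slow the cell cycle. *CDKN1A* (chr6:36644237-36655114, plus strand, GRCh37), which encodes the cyclin-dependent kinase inhibitor p21 and is the most used readout of p53, had 7375 and 26564 counts in the 2 controls against 10350 and 11943 in the 2 OE libraries. That was 316 and 1129 CPM against 412 and 412 CPM. Vector control replicate 2 was the highest library and vector control replicate 1 the lowest, so the OE libraries lay between the controls. The means were 723 ± 575 and 412 ± 0.265 CPM (SD, n = 2 libraries each), and the log2 fold change was -0.81 (SE 0.655, adjusted p = 0.547 by edgeR's quasi-likelihood test). Without vector control replicate 2 it turned to 0.38, and without vector control replicate 1, which leaves the highest library as the only control, it was -1.46 (adjusted p = 0.0491 by edgeR's quasi-likelihood test). In that library ENST00000405375.1 took 26149 counts, against 501 to 1450 counts in the other libraries, and ENST00000373711.2 took 330, against 5621 to 6224. With length-scaled counts *CDKN1A* was at 494 and 741 CPM in the vector control and at 673 and 609 CPM in OE, with a log2 fold change of 0.05 (SE 0.219, adjusted p = 0.922).

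*BTG2*, an antiproliferative gene, was at 35.7 and 39.3 CPM in the vector control and at 56.7 and 43.9 CPM in OE. Its log2 fold change was 0.42 (SE 0.167, adjusted p = 0.274 by edgeR's quasi-likelihood test), 0.23 without OE replicate 1 and 0.60 without OE replicate 2. All *BTG2* counts were on ENST00000475157.1. The annotation used for transcript lengths types that transcript as a target of nonsense-mediated decay, not as protein-coding. *PLK3*, a stress-activated kinase, was below both controls in both OE libraries, with a log2 fold change of -0.52 (SE 0.276, adjusted p = 0.383). That value was -0.89 without OE replicate 1 and -0.22 without OE replicate 2. *PLK2* and *GADD45A*, a damage-induced regulator of repair and arrest, overlapped between the groups with log2 fold changes of -0.04 and 0.13.

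The feedback genes switch p53 off again. *MDM2* (chr12:69201957-69239324, plus strand, GRCh37) was at 241 and 229 CPM in the vector control and at 255 and 273.5 CPM in OE, with means of 235 ± 8.53 and 264 ± 13.1 CPM (SD, n = 2 libraries each). Both OE libraries were above both controls, by a log2 fold change of 0.17 (SE 0.0718, adjusted p = 0.297 by edgeR's quasi-likelihood test), which did not pass the threshold. Nearly all of its counts were assigned to ENST00000462284.1, and an unnamed gene on the same strand overlaps its exons. *MDM4*, the relative of MDM2, and *PPM1D*, a phosphatase that acts on p53, had log2 fold changes of 0.11 and 0.13. *CCNG1*, cyclin G1, went the other way, at 105 and 104 CPM in the vector control and 81.3 and 92.6 CPM in OE. Its log2 fold change was -0.27 (SE 0.101, adjusted p = 0.262 by edgeR's quasi-likelihood test). With length-scaled counts *CCNG1* was at 132 and 94.5 CPM in the vector control and 89.8 and 114 CPM in OE. The groups then overlapped, with a log2 fold change of -0.15 (SE 0.228).

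The DNA repair genes *XPC*, *DDB2* and *POLH* and the nucleotide supply gene *RRM2B* all had log2 fold changes below 0, from -0.28 to -0.04, and none had an unadjusted p under 0.05. *XPC* turned to 0.07 without OE replicate 1 and *POLH* to 0.04 without OE replicate 2. *DDB2* is a damage sensor for ultraviolet lesions, and 1 of its 2 starts carries the perfect pair of half-sites. It was at 15.96 and 19.6 CPM in the vector control and at 15.3 and 14.1 CPM in OE. Both OE libraries were below both controls, with a log2 fold change of -0.28 (SE 0.159, adjusted p = 0.412).

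The last group holds redox, mitochondrial, RNA-binding and secreted products. *GDF15* (chr19:18485541-18499986, plus strand, GRCh37), a secreted stress cytokine, had 1176 and 988 counts in the 2 controls against 2906 and 3905 in the 2 OE libraries, or 50.4 and 41.99 CPM against 116 and 135 CPM. Both OE libraries were above both controls, with means of 46.2 ± 5.98 and 125 ± 13.5 CPM (SD, n = 2 libraries each). Its log2 fold change was 1.44 (SE 0.150, adjusted p = 0.0655 by edgeR's quasi-likelihood test), and it stayed between 1.31 and 1.57 when any 1 library was left out. Its adjusted p ran from 9.61e-17 in DESeq2 to 0.887 across the 12 alternatives. With length-scaled counts its level was 42.7 and 140 CPM in the vector control and 98.1 and 116 CPM in OE. The groups then overlapped, with a log2 fold change of 0.23 (SE 0.608, adjusted p = 0.872). The transcripts differed between libraries of a group: ENST00000595973.2 took 1172 and 0 counts in the 2 controls against 796 and 3228 in the 2 OE libraries, and ENST00000597765.1 took 0 and 252 counts in the 2 controls against 2098 and 645 in the 2 OE libraries. The short ENST00000594925.1, 294 bases long in the annotation used, took 4 and 736 counts in the 2 controls against 11 and 32 in the 2 OE libraries, so it held 74.5% of the counts in vector control replicate 2, the library with the highest length-scaled value.

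*ZMAT3* (chr3:178677909-178790003, minus strand, GRCh37), an RNA-binding zinc finger protein that regulates splicing, was the member lower in OE at an unadjusted p under 0.05. It was at 187 and 160 CPM in the vector control and at 125 and 128 CPM in OE. The groups did not overlap, with means of 173 ± 19.3 and 126 ± 2.22 CPM (SD, n = 2 libraries each) and a log2 fold change of -0.46 (SE 0.106, adjusted p = 0.146 by edgeR's quasi-likelihood test). All of its counts were on 1 transcript, and the length-scaled value was also -0.46. *SESN1*, a stress-responsive inhibitor of mTORC1 signalling, was at 28.7 and 28.5 CPM in the vector control and at 34.2 CPM in both OE libraries. Its replicates were nearly equal, and its log2 fold change was 0.26 (SE 0.0897, adjusted p = 0.238 by edgeR's quasi-likelihood test). *FDXR*, a mitochondrial electron carrier enzyme, was at 19.8 and 19.9 CPM in the vector control and at 16.7 and 15.5 CPM in OE, with a log2 fold change of -0.30 (SE 0.112, adjusted p = 0.255). *TP53I3*, a quinone oxidoreductase, and *SPATA18*, a mitochondrial quality control gene, had log2 fold changes of -0.14 and 0.18 with adjusted p of 0.722 and 0.50 by edgeR's quasi-likelihood test.

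**Figure D3:**
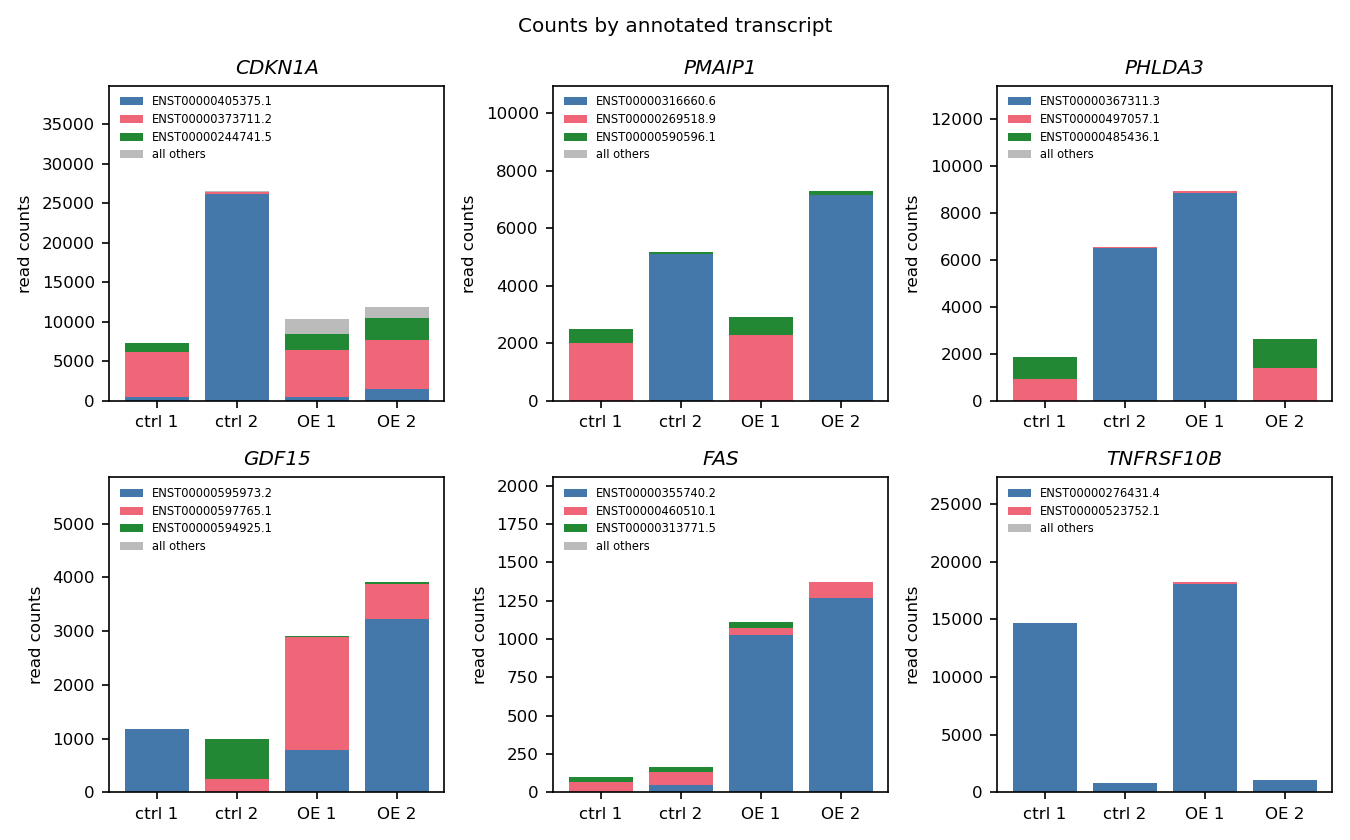
Read counts per library stacked by annotated transcript for 6 p53 target genes (ctrl, vector control), with the 3 most counted transcripts in colour and all others in grey. CDKN1A, PMAIP1, PHLDA3 and GDF15 change their leading transcript between replicates of a group, FAS has its additional counts in OE on 1 transcript, and TNFRSF10B differs 17.8-fold and 19.6-fold between replicates on the same transcript.

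The members *CDKN1A*, *PMAIP1*, *PHLDA3* and *TNFRSF10B*, had replicates of a group more than 2-fold apart (4 of 30, against 13.5% of 17597 tested genes whose mean reached 1 CPM). Among the 29 members with a length-scaled value (*MDM2*, whose leading transcript had no length, kept its unscaled counts), 4 were more than 2-fold apart with summed counts and 2 with length-scaled counts, now *TNFRSF10B* and *GDF15*. Among all 15972 such genes the shares were 13.2% and 12.9%. Of the 30 tested members, 24 had the same leading transcript in all libraries and 6 did not. The lengths came from a later annotation than the one counted, with the same transcript version for 32 of 79 member transcripts and a length for 77. Without the 4 members named first, left out after their values were seen, the summed level was 1920 and 1972 CPM in the vector control and 2051 and 2167 CPM in OE, and the median log2 fold change of the 26 left was 0.12. With them, the sums were 3056 and 3634 CPM against 3657 and 2959 CPM and overlapped.

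**Figure D4:**
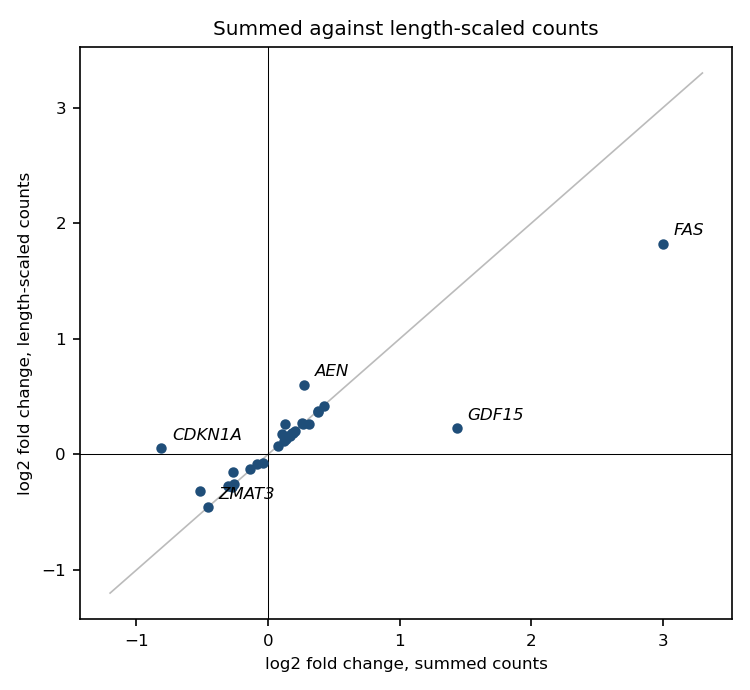
Log2 fold change of the 29 tested p53 target genes with a length-scaled value (for MDM2 the unscaled counts), from summed counts (x axis) and from length-scaled counts (y axis), with the line of equality. GDF15 moves from 1.44 to 0.23, FAS from 3.0 to 1.82, AEN from 0.28 to 0.60 and CDKN1A from -0.81 to 0.05, and ZMAT3 stays at -0.46.

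Of the 20 tested p53 relatives and regulators, 0 had an unadjusted p under 0.05 in either direction by edgeR's quasi-likelihood test, against 10.1% of all genes higher and 10.7% lower, and the median log2 fold change was -0.04. DESeq2 had 1 lower at that level. The smallest unadjusted p among those lower belonged to *CHEK1*, a checkpoint kinase that phosphorylates p53, with a log2 fold change of -0.33 (SE 0.143, adjusted p = 0.307). Among those higher it belonged to *USP7*, a deubiquitinase of MDM2 and p53, with 0.08 (SE 0.106, adjusted p = 0.702).

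A list of 32 other p53 targets, of which 30 were tested, had 4 genes higher (13.3%, against 10.1% of all genes) and 5 lower (16.7%, against 10.7%) at an unadjusted p under 0.05, shares near those of all genes, and a median log2 fold change of 0.11. *TNFRSF10D* and *SFN* did not pass the filter. *BTG1*, an antiproliferative relative of *BTG2*, was at 183 and 187 CPM in the vector control and at 245 and 240 CPM in OE, with a log2 fold change of 0.39 (SE 0.0600, adjusted p = 0.0931 by edgeR's quasi-likelihood test). *TP53I11* was at 61.0 and 61.5 CPM in the vector control and at 45.9 and 39.6 CPM in OE, with a log2 fold change of -0.52 (SE 0.115, adjusted p = 0.136). These were the smallest p in each direction.

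p53 also lowers many cell cycle genes indirectly, through p21. All 20 genes of that list had a log2 fold change below 0 with all libraries, and 3 of them (*BIRC5*, *CDC20* and *CDC25A*) turned above 0 when 1 library was left out. *BIRC5*, a survival and mitosis gene at 94.5 and 1.66 CPM in the vector control, had -0.37 with all libraries, 4.48 without vector control replicate 1 and 1.47 with a replicate block. At an unadjusted p under 0.05, 10 were lower (50%, against 10.7% of all genes), while 0 were higher. Both OE libraries lay below both controls for 17 of the 20, against 27.6% of all genes, and the list's median log2 fold change was -0.53. The summed level of the list was 967 and 886 CPM in the vector control and 583 and 573 CPM in OE. *MKI67*, the proliferation marker Ki-67, was at 197 and 176 CPM in the vector control and at 93.6 and 94.7 CPM in OE, with a log2 fold change of -0.99 (SE 0.0906, adjusted p = 0.0615 by edgeR's quasi-likelihood test). By edgeR 0 genes of the list had an adjusted p under 0.05 and by limma-voom 1 did, while DESeq2 called 8 of the 20 lower at the study's cutoffs, against 4.42% of all genes. *CDKN1A* in the same libraries lay at 412 CPM in OE, between its 2 control values. Of the neuroblastoma markers given above, all 9 tested adrenergic genes were above both controls in both OE libraries (against 27.8% of all genes). Of the 9 mesenchymal genes, 6 were below both controls (against 27.6%) and 1, *VIM*, was above. The part of these markers in the cell cycle values was not tested.

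**Figure D5:**
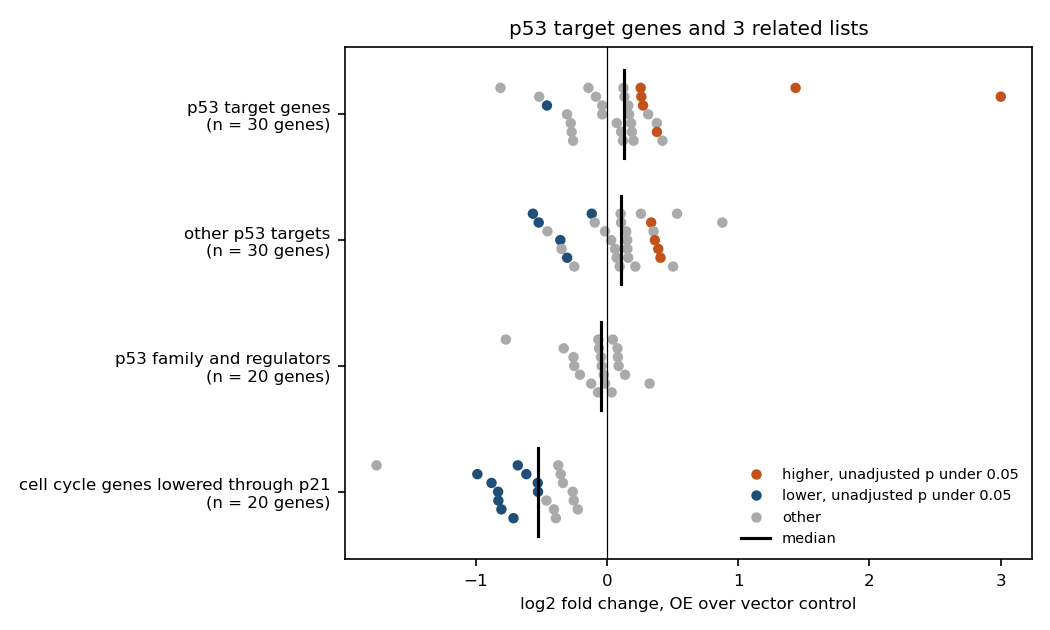
Log2 fold change (OE over vector control) of each tested gene in the p53 target genes and 3 related lists, with a black line at the median of each list and colour for an unadjusted p under 0.05. With all libraries the cell cycle genes lie below 0 with a median of -0.53, while the medians of the other lists lie between -0.04 and 0.13.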

How the data were processed

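RNA-seq was performed on 4 libraries of SK-N-SH cells, and the authors deposited whole-number counts per transcript (196520 transcripts of 57820 genes), without normalization. The paper's methods name FastQC, Trimmomatic and mapping to hg19 with Bowtie2. The submitters' processing notes list Bowtie2 2.0.4, Picard 2.21.6, StringTie 2.1.6 and DESeq2. The counting tool, the annotation release and the use of strand are not given in the sources used here. A gene's counts are the sum over its transcripts. Genes kept by filterByExpr (20528) were normalized by TMM and tested two-sided with edgeR 4.0.16 (quasi-likelihood test, R 4.3.3), with Benjamini-Hochberg adjustment over all genes tested and no covariates. Alternatives used DESeq2 1.42.0 and limma-voom (limma 3.58.1). Length-scaled counts used transcript lengths of GENCODE release 44 lifted to GRCh37, were chosen after seeing the data and gave no value for 1857 genes. Each test was first run on simulated counts in which 200 genes were changed. The simulated libraries were set to vary less than these data, so that run does not show how the tests perform at the spread seen here. The SE of a log2 fold change is its size divided by the square root of the test's F. The members, the other lists and the markers were chosen with earlier results of these data known. Members were described in full at an unadjusted p under 0.05, if they were *CDKN1A*, *MDM2*, *BBC3* or *PMAIP1*, or with replicates more than 2-fold apart at a mean of at least 1 CPM. With no adjusted p under 0.05 in a list, the gene with the smallest p in each direction was named from the other lists. Some results covered by these rules are not reported here. Other genes named serve as checks or illustrate a group and were chosen after their values were seen.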

Additional observations from a re-analysis of the deposited data

How the results depend on the processing

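Over all genes tested, the deviations of same-numbered libraries correlated at -0.0216. This 1 value over all genes cannot decide whether the libraries were paired. *TNFRSF10B* and *PMAIP1* were each high in same-numbered libraries of both groups, while *PHLDA3* was high in libraries of different number. With a replicate block, 2 p53 target genes were higher at an unadjusted p under 0.05, against 6, and among the other p53 targets 2 were higher, against 4, and 1 lower, against 5. With the transcript of highest mean, 1 member was higher, and of the other targets 2 were higher and 3 lower, and 2 regulators were lower. DESeq2 called 2 members at the study's thresholds, against 0, and had 3 members lower at an unadjusted p under 0.05, as limma-voom had 2, and 1 regulator lower. DESeq2 was the alternative that took *FAS* (3.0) and *GDF15* (1.44) past the study's thresholds. Leaving out 1 library at a time gave 2 to 4 members higher and 1 to 2 lower, a member median of 0.019 to 0.124, 2 to 4 other targets higher and 2 to 4 lower, 0 to 1 regulators higher and 0 to 2 lower, and 0 to 1 cell cycle genes higher with 8 to 9 lower.

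Directions turned for *CDKN1A* to 0.38 without vector control replicate 2 and to 0.053 with length-scaled counts, for *AEN* to -0.51 with the transcript of highest mean, and for 3 more of the 12 members described in full when 1 library was left out. Of the 18 other tested members, 9 also turned without 1 library. Over the 4 left-out libraries the log2 fold change ran from -1.46 to 0.38 for *CDKN1A*, from -0.51 to 0.77 for *PMAIP1*, from -0.98 to 1.46 for *PHLDA3* and from -3.17 to 3.42 for *TNFRSF10B*. The cause was not tested. No other of those 12 members changed direction under the alternatives run. Of the 121 values on counts and the median under an alternative, 97 stayed within 1.5 times or within the spread of the left-out libraries. Many of these 97 were counts of 0 that stayed at 0, so the share does not describe the counts above 0. With 2 libraries per group, the spread of each gene rests on 2 residual degrees of freedom.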
